A study of Homo sapiens with 90 samples.

Results

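The hepatic drug uptake transporters examined here are 7 genes: SLCO1B1, SLCO1B3, SLCO2B1, SLC22A3, SLC22A7, SLC22A9 and SLC47A1. They were taken as all probe sets whose only gene symbol in the platform annotation is one of these names, which gave 12 of the 54715 probe sets on the array, or 6 of the 19774 genes with a probe set of their own. SLC22A7 had 5 probe sets and SLCO2B1 had 3, while SLCO1B1, SLCO1B3, SLC22A9 and SLC47A1 had 1 each. SLC22A3 (OCT3), a carrier of organic cations, was not analysed here.

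The expression data came from HepaRG cells, a hepatic progenitor line from a human liver tumour that differentiates in culture into hepatocyte-like and biliary-like cells. Differentiated cells in plates, kept in induction medium on the day before treatment, received for 24 h 1 of 3 pesticides, namely the triazole fungicide fenbuconazole, the imidazole fungicide imazalil or the phenoxyacetic acid herbicide 2,4-D, each at 9 doses that ran in steps of about 3-fold up to 10 µM (lowest 0.001 µM) with 3 replicates a dose, or the DMSO vehicle alone, with 3 common arrays. All groups received DMSO. All groups are 1 cell line, and the replicates are batches of culture, not donors. The values are log2 RMA expression. Each chemical's arrays were normalized apart from the others but with the 3 DMSO arrays in common, so that the 90 columns hold 81 treated arrays and 3 DMSO arrays in 3 versions. Each replicate carries a P code in its label (P1, P2 or P3), taken here as its culture batch.

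Hepatocytes take up drugs, bile acids and hormones from the blood through carriers of the basolateral membrane. The SLCO genes encode organic anion transporting polypeptides (OATPs), which work without sodium, and the SLC22 genes encode organic anion and cation transporters. SLC47A1 encodes MATE1, a proton antiporter of the canalicular membrane that moves organic cations out of the cell, and was kept because the list names it although its known direction is export. Several of these carriers are used to judge the risk of drug interactions in the liver.

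The 14 hepatocyte markers that could be measured, out of 15 listed, had DMSO means of 8.48 to 13.30 log2 units, against array medians of 2.81 to 2.97 over all 90 columns. Of the markers of other cell types, 4 of 7 biliary, 2 of 7 mesenchyme, 3 of 4 endothelium and 3 of 4 immune genes lay within 1 log2 unit of the median or under it in the DMSO arrays of each set. The xenobiotic responders moved with both azoles at 10 µM. CYP1A1, a P450 induced through the aryl hydrocarbon receptor, was 2.35 log2 units higher with fenbuconazole and 5.41 higher with imazalil than with DMSO. CYP2B6, a target of the constitutive androstane receptor, was 1.78 higher with fenbuconazole and 3.33 higher with imazalil, and CYP3A4, the main drug-metabolizing P450 of liver, 2.23 higher with fenbuconazole and 2.70 higher with imazalil. With 2,4-D, CYP1A1, CYP2B6 and CYP3A4 differed from DMSO by 0.20, -0.03 and 0.33, none past the threshold of an adjusted p of 0.05.

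Of the 6 transporters, by representing probe sets in the fit without a P code term, SLC47A1 alone passed against DMSO at any dose of any chemical, at 10 µM imazalil, where it was higher. That call did not pass without P2. SLC22A7 was lower than DMSO at 10 µM fenbuconazole and passed there by 1 of its 5 probe sets and under some other settings, given below. With imazalil at 10 µM 1 of 6 transporters and 0.819% of all genes passed, and with fenbuconazole 0 of 6 and 0.607%, where 1516 genes had an unadjusted p under 0.05. With 2,4-D 0 of 6 and 0% of all genes passed in limma, where 1114 genes had an unadjusted p under 0.05. At the doses under 10 µM the share was 0% or 0.00506%, apart from 0.0556% at 3 µM imazalil. The set of 6 had a median log2 fold change of 0.11 with imazalil, -0.03 with fenbuconazole and -0.0030 with 2,4-D, where the median over all genes was 0.0145 with imazalil, 0.000336 with fenbuconazole and 0.00136 with 2,4-D. Against the pooled low doses of 0.001 to 0.1 µM (15 arrays, the DMSO arrays not used), SLC22A7 passed as well and was lower with both azoles. There 2 of the 6 transporters and 2.71% of all genes passed with imazalil, 1 and 2.05% with fenbuconazole, and 0 and 0.445% with 2,4-D.

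**Figure D1:**
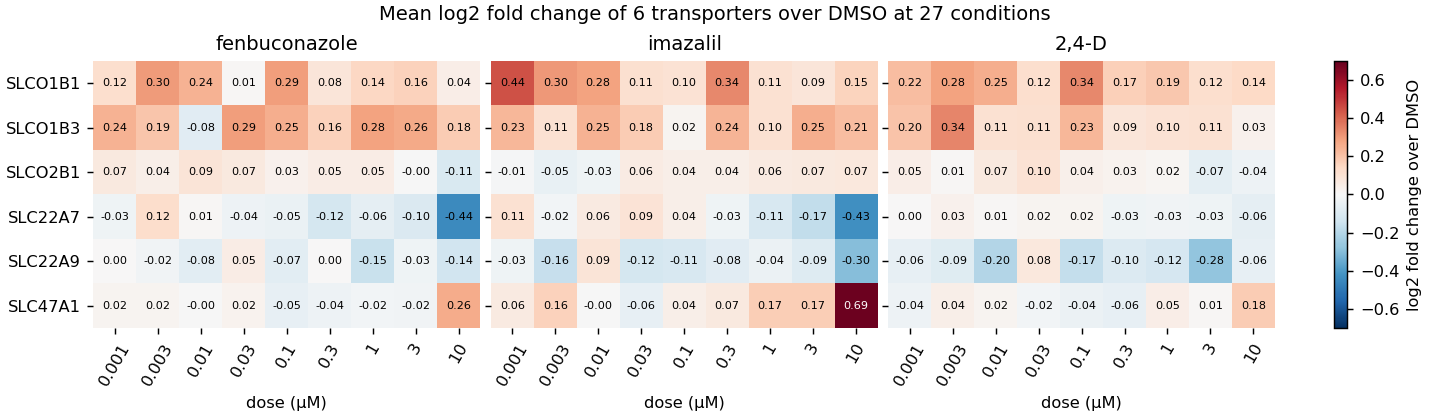
Mean log2 fold change over DMSO of the representing probe set of 6 transporters (rows) at 9 doses in µM (columns) of fenbuconazole, imazalil and 2,4-D (panels), 3 arrays a mean. SLC47A1 stands at 0.69 with 10 µM imazalil, SLC22A7 at -0.44 and -0.43 with 10 µM fenbuconazole and imazalil, and the SLCO1B1 row is above 0 throughout, up to 0.44 at 0.001 µM imazalil.

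SLC47A1 (MATE1) read 8.29, 8.26 and 8.23 log2 units at 10 µM imazalil (P1, P2 and P3), against 7.73, 7.41 and 7.57 in DMSO. All 3 treated arrays lay above the 3 DMSO arrays and above the 15 low-dose arrays, which spanned 7.48 to 7.85. Such separation was seen for 14.2% of all genes against DMSO and for 2.82% against the low doses. The difference was 0.69 ± 0.10 (SE, n = 3 each, adjusted p = 0.000122), or 1.61-fold, with a 95% interval of 0.49 to 0.89 on the log2 scale. Within the P codes the rise over DMSO was 0.55 in P1, 0.85 in P2 and 0.66 in P3, and over the low doses it was 0.66, 0.62 and 0.67. DMSO array P2 is the lowest of the 3 in each set for this gene.

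SLC47A1 passed at the top dose of imazalil alone. By dose, the means in the imazalil set were 7.57 ± 0.16 in DMSO, 7.64 ± 0.08 at 0.3 µM, 7.74 ± 0.11 at 1 µM, 7.74 ± 0.17 at 3 µM and 8.26 ± 0.03 at 10 µM (SD, n = 3 each). At 1 and 3 µM the gene was 0.17 and 0.17 above DMSO, with adjusted p of 0.800 and 1.000, neither past the threshold. The moderated F over the 9 doses passed with an adjusted p of 0.00153 for imazalil (0.384% of all genes passed), and it was lost when P1, P2 or P3 was left out. A straight line over the dose steps did not pass, with an adjusted p of 0.0797 (0.329% passed). The F test called 0 of 6 transporters for fenbuconazole (0.379% of all genes) and for 2,4-D (0%). Against the pooled low doses the difference was 0.65 ± 0.08 (SE, adjusted p = 2.37e-06).

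SLC47A1 was also higher at 10 µM of the other chemicals, but less so and not past the threshold against DMSO. Fenbuconazole at 10 µM gave 7.96, 7.75 and 7.87, against 7.77, 7.43 and 7.60 in DMSO, a difference of 0.26 ± 0.10 (SE, adjusted p = 0.446) with overlapping arrays. With 2,4-D at 10 µM the arrays read 7.93, 7.93 and 7.65, against 7.84, 7.50 and 7.64 in DMSO, a difference of 0.18 ± 0.10 (SE, adjusted p = 0.925). Against the pooled low doses fenbuconazole stood at 0.26 (adjusted p = 0.0911) and 2,4-D at 0.19 (adjusted p = 0.401), and all 3 fenbuconazole arrays lay above the 15 low-dose arrays, a separation seen for 1.92% of all genes. With the P code as a block, the fenbuconazole difference from the low doses passed (adjusted p = 0.0233), as did 522 of 19774 genes.

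**Figure D2:**
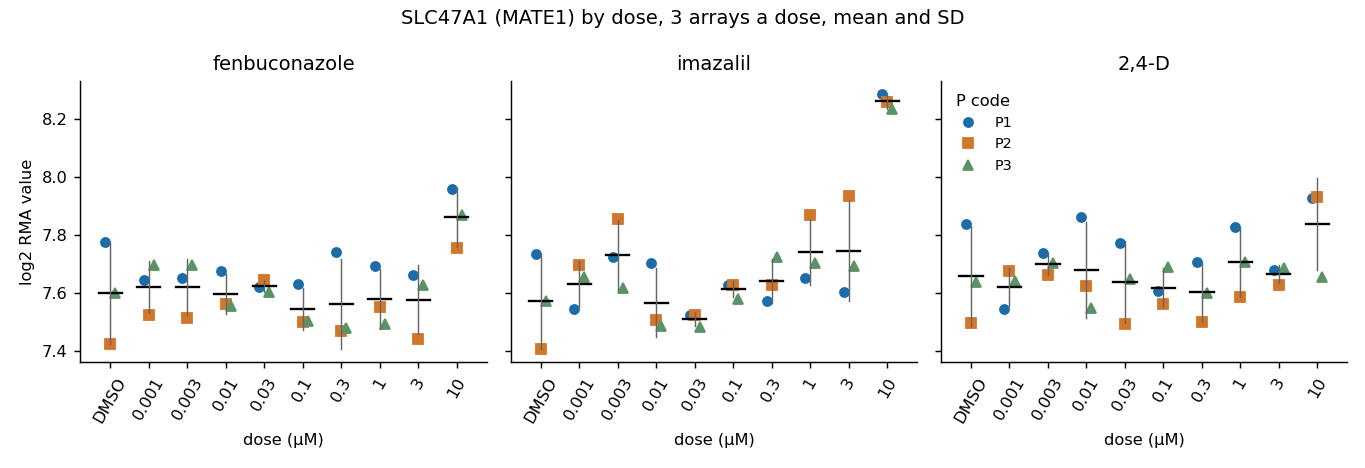
SLC47A1 in log2 RMA units (vertical axis) by dose in µM, with DMSO at the left, for fenbuconazole, imazalil and 2,4-D (panels). Points are single arrays by P code, horizontal bars the mean and vertical lines 1 SD (n = 3). At 10 µM imazalil the arrays lie between 8.23 and 8.29, above every array at lower doses.

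Set against each other at 10 µM, after each set's mean of the shared DMSO arrays was subtracted, fenbuconazole gave a lower SLC47A1 value than imazalil, a difference of -0.43 ± 0.09 (SE, adjusted p = 0.00428). Imazalil exceeded 2,4-D by 0.51 ± 0.09 (SE, adjusted p = 0.000173). Fenbuconazole exceeded 2,4-D by 0.08 with a 95% interval of -0.10 to 0.26 (adjusted p = 0.946), an interval that includes 0. These 3 comparisons called 0.516%, 0.779% and 0.551% of all genes, and 1, 1 and 0 of the 6 transporters. The kidney-type paralog SLC47A2 (MATE2) was lower with fenbuconazole than with imazalil, a difference of -0.41 (adjusted p = 0.0358). It is 1 gene named from the further SLCO, SLC22 and SLC47 genes described below. It did not pass against DMSO at 10 µM of any chemical, and its dependence on single P codes was not tested.

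The calls for SLC47A1 depended in part on single culture batches. Without the P2 arrays the imazalil difference from DMSO was 0.61 with an adjusted p of 0.0509, and without P2 or P3 the fenbuconazole against imazalil difference kept its sign at -0.38 and -0.45 with adjusted p of 0.377 and 0.189. Without P3 the imazalil against 2,4-D difference was 0.44 (adjusted p = 0.162), and the difference of imazalil from the low doses passed without any 1 of the P codes (adjusted p 0.00101 to 0.00696).

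SLC22A7 encodes OAT2, a basolateral carrier of organic anions and of nucleoside-like and cGMP-like substrates. A promoter window of the RefSeq table is printed here for this member, which was lower with both azoles. It holds the 250 bases before a RefSeq start site on the plus strand of GRCh38.p14, at chr6:43298010-43298259. The annotated gene runs from 43295714 to 43305538, so the window lies inside the gene and not upstream of it. TGACCT, the reverse complement of the nuclear receptor element AGGTCA, is in capitals.

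SLC22A7: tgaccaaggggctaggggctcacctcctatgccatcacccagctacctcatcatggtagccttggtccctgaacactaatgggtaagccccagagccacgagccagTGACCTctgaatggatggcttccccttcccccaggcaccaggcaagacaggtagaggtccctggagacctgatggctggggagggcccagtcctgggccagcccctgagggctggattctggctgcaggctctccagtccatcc

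The element AGGTCA, sought on both strands, occurs in 12.1% of 35116 such windows. The direct repeats DR1 (AGGTCANAGGTCA) and DR4 (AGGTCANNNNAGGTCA) and the aryl hydrocarbon receptor core GCGTG have no match in this window, and GCGTG occurs in 32.2% of windows. The window of SLCO1B3, a member that did not pass against DMSO with either azole, holds TGACCT too. A match is a run of letters, not a measured site.

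At 10 µM fenbuconazole the representing probe set of SLC22A7 (231398_PM_at, the one with the highest mean) read 9.02, 8.46 and 9.11 log2 units (P1, P2 and P3), against 9.36, 9.21 and 9.34 in DMSO. With imazalil it read 8.91, 8.59 and 8.98, against 9.28, 9.20 and 9.28 in DMSO. All 3 treated arrays of each azole lay under the 3 DMSO arrays and under the 15 low-dose arrays, whereas the 10 µM arrays of 2,4-D overlapped both. The share of all genes separated from DMSO was 11% with fenbuconazole and 14.2% with imazalil, and from the low doses 1.92% with fenbuconazole and 2.82% with imazalil, while for 2,4-D these shares were 8.01% and 0.966%.

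Against DMSO the difference was -0.44 ± 0.11 (SE, adjusted p = 0.0740) for fenbuconazole and -0.43 ± 0.13 (SE, adjusted p = 0.165) for imazalil, neither past the threshold. With the P code as a block fenbuconazole passed (adjusted p = 0.0364, with 153 of 19774 genes called) and imazalil did not (adjusted p = 0.0516, with 244 called). In the imazalil set the means were 9.25 ± 0.05 in DMSO, 9.14 ± 0.21 at 1 µM, 9.08 ± 0.13 at 3 µM and 8.83 ± 0.20 at 10 µM (SD, n = 3 each), and a straight line over the dose steps did not pass (adjusted p = 0.112). In linear terms the level of SLC22A7 was 0.735 of DMSO with fenbuconazole (95% interval 0.627 to 0.863) and 0.743 with imazalil (0.616 to 0.896). Against the pooled low doses SLC22A7 was lower with both azoles, at -0.45 ± 0.09 with fenbuconazole (SE, adjusted p = 0.00313) and -0.48 ± 0.10 with imazalil (SE, adjusted p = 0.00605). With 2,4-D at 10 µM it read 9.28, 9.20 and 9.42, against 9.42, 9.26 and 9.41 in DMSO, a difference of -0.06 with a 95% interval of -0.24 to 0.12.

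**Figure D3:**
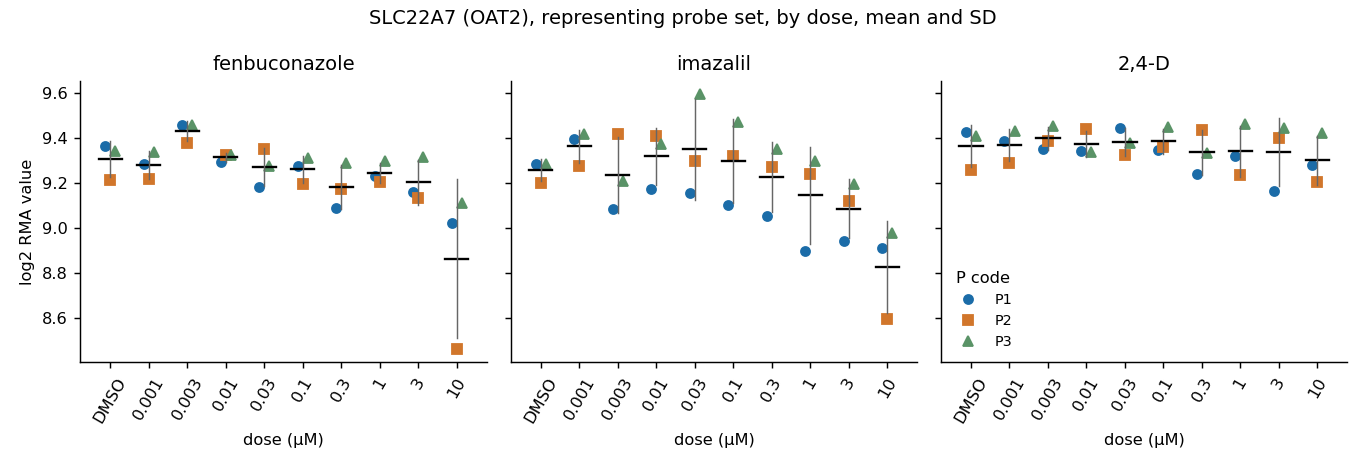
Representing probe set of SLC22A7 in log2 RMA units (vertical axis) by dose in µM, with DMSO at the left, for 3 chemicals (panels). Points are single arrays by P code, horizontal bars the mean and vertical lines 1 SD (n = 3). The 10 µM arrays of fenbuconazole and imazalil lie under 9.12, and the P2 array is the lowest of each.

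The size of the SLC22A7 difference varied with the P code. Within P2 the 10 µM array differed from its DMSO array by -0.75 with fenbuconazole and by -0.60 with imazalil, while fenbuconazole gave -0.34 in P1 and -0.23 in P3, and imazalil -0.37 in P1 and -0.31 in P3. Without P2 the difference from the low doses was -0.25 (adjusted p = 0.469) for fenbuconazole and -0.35 (adjusted p = 0.489) for imazalil, so neither call passed. The count over all genes fell as well, to 84 without P2 against 406 with all arrays for fenbuconazole, and to 88 against 536 for imazalil. Without P3 the imazalil difference was -0.51 (adjusted p = 0.0808, 164 genes called). The secreted hepatocyte protein gene AHSG, 1 of the 14 measured hepatocyte markers, also had its largest fall in P2. There it differed from DMSO by -1.24 with fenbuconazole and -1.51 with imazalil. Fenbuconazole gave -0.55 in P1 and -0.70 in P3, and imazalil -1.13 in P1 and -1.15 in P3. The mean over the 14 markers, CYP3A4 included, did not fall in each P code. It differed from DMSO by 0.23, -0.06 and 0.07 with fenbuconazole (P1, P2 and P3). With imazalil these values were 0.16, -0.07 and 0.06.

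All 5 probe sets of SLC22A7 were lower than DMSO on average at 10 µM of both azoles. Against DMSO they ranged over -0.74 to -0.35 with fenbuconazole and -0.59 to -0.32 with imazalil, and over -0.36 to 0.08 with 2,4-D. The probe set 1555553_PM_a_at passed over all probe sets with fenbuconazole (-0.53 ± 0.11, SE, adjusted p = 0.0253), where 0.345% of all probe sets passed. It read 7.99, 7.56 and 8.08 with fenbuconazole and 8.46, 8.41 and 8.35 in DMSO, with no overlap, which 11% of all genes by their representing probe sets showed too. The widest differences of both azoles came from 221661_PM_at, whose SD over the DMSO arrays was 0.37 to 0.48, against 0.05 to 0.09 for the representing probe set. Against the pooled low doses 4 of the 5 passed with fenbuconazole (1.06% of all probe sets) and 3 of the 5 with imazalil (1.2%), and 0 with 2,4-D (0.225%). Against DMSO 0 of the 5 passed with imazalil (0.406%). Probe sets of 1 gene share its transcripts and are not replicates.

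Between chemicals at 10 µM, the representing SLC22A7 probe set was lower with fenbuconazole than with 2,4-D, at -0.38 ± 0.11 (SE, adjusted p = 0.154), and lower with imazalil than with 2,4-D at -0.36 ± 0.11 (SE, adjusted p = 0.134). Both passed with the P code as a block (adjusted p = 0.0460 and 0.0454), where 148 and 238 of 19774 genes did. The probe set 1555553_PM_a_at passed against 2,4-D for fenbuconazole (-0.61, adjusted p = 0.000235) and for imazalil (-0.53, adjusted p = 0.00395), and 2 of the 5 and 1 of the 5 probe sets passed in these comparisons, where 0.356% and 0.389% of all probe sets did. Between fenbuconazole and imazalil 0 of the 5 passed, against 0.269% of all probe sets. Fenbuconazole and imazalil differed by -0.02 in SLC22A7 with a 95% interval of -0.24 to 0.21 (adjusted p = 0.992), which leaves room for a difference of up to 0.24 log2 units.

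**Figure D4:**
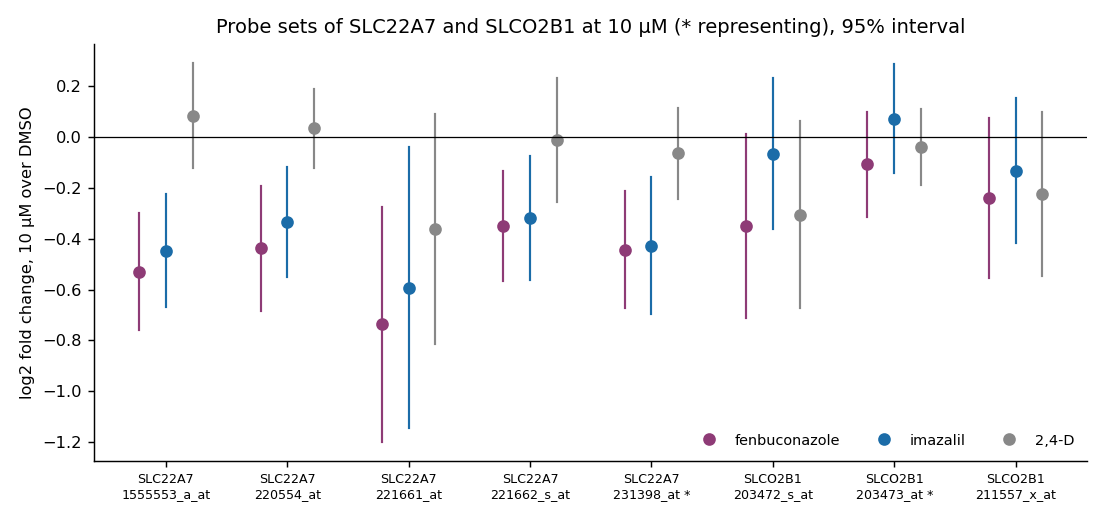
Log2 fold change of 10 µM over DMSO (vertical axis) for the 5 probe sets of SLC22A7 and the 3 of SLCO2B1 (horizontal axis), by chemical, with 95% intervals from the limma fit. All 5 SLC22A7 values of fenbuconazole and imazalil are under 0, between -0.74 and -0.32, and the 2,4-D values range over -0.36 to 0.08.

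SLCO1B1 and SLCO1B3 encode OATP1B1 and OATP1B3, the uptake carriers of statins, bilirubin and bile acid conjugates, and lie in 1 cluster on chromosome 12. SLCO1B1 read 7.07, 6.38 and 6.77 at 10 µM fenbuconazole, against 6.69, 6.51 and 6.87 in DMSO. With imazalil it read 6.87, 6.48 and 6.79, against 6.64, 6.26 and 6.79 in DMSO, and with 2,4-D 6.83, 6.76 and 6.89, against 6.75, 6.42 and 6.89 in DMSO. The arrays overlapped in every set, and the differences were 0.04 (95% interval -0.23 to 0.32), 0.15 (-0.11 to 0.42) and 0.14 (-0.08 to 0.35). Over all 27 conditions the mean lay above DMSO, at 0.01 to 0.44, and 10 of 27 contrasts had an unadjusted p under 0.05, with a smallest adjusted p of 0.337. Of all 19774 genes, 6.4% lay on 1 side of DMSO in all 27 contrasts and 2.76% had 10 or more with such a p. These contrasts share 3 DMSO arrays, of which P2 was the lowest in each set. Against the pooled low doses SLCO1B1 stood at -0.15, -0.10 and -0.10 at 10 µM of the 3 chemicals, none past the threshold (adjusted p = 0.761, 0.774 and 0.745).

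SLCO1B3 lay near the array median, so its values are close to the level of probe sets without signal. Its DMSO means were 2.94 ± 0.12 in the fenbuconazole set, 3.04 ± 0.11 in the imazalil set and 2.77 ± 0.09 in the 2,4-D set (SD, n = 3 each), beside medians over all probe sets of 2.87, 2.84 and 2.91. At 10 µM it read 3.26, 3.23 and 2.87 with fenbuconazole, 3.42, 3.10 and 3.26 with imazalil and 2.58, 2.88 and 2.95 with 2,4-D, and differed from DMSO by 0.18, 0.21 and 0.03 (adjusted p = 0.878, 0.744 and 0.994). Its 27 conditions ranged over -0.08 to 0.34 and none passed.

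SLCO2B1 encodes OATP2B1, a carrier of steroid sulfates and many drugs in liver and intestine. Its representing probe set read 8.49, 8.39 and 8.75 at 10 µM fenbuconazole, against 8.67, 8.65 and 8.63 in DMSO. With imazalil it read 8.72, 8.69 and 8.70, against 8.67, 8.64 and 8.60 in DMSO, so that the imazalil arrays lay above those of DMSO, as 14.2% of all genes were separated there, by 0.07 on average (95% interval -0.14 to 0.29), a difference that did not pass (adjusted p = 0.894). The values with 2,4-D were 8.68, 8.44 and 8.70, against 8.68, 8.62 and 8.63 in DMSO. Over the 27 conditions it ranged over -0.11 to 0.10. The other 2 probe sets moved more widely, with a DMSO SD of 0.34 to 0.42 against 0.02 to 0.04 for the representing one, and neither passed in any of these comparisons. At 10 µM imazalil their means lay under DMSO, at 6.05 against 6.11 and 6.96 against 7.09, unlike the representing probe set. Against the pooled low doses all 3 were higher with imazalil, by 0.07 to 0.17.

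SLC22A9 encodes OAT7, a liver carrier of steroid sulfates and short-chain fatty acids. It read 5.42, 5.92 and 5.73 at 10 µM imazalil, against 5.94, 6.23 and 5.79 in DMSO, a difference of -0.30 ± 0.19 (SE, adjusted p = 0.666). Fenbuconazole gave 5.61, 5.93 and 5.94, against 5.88, 6.18 and 5.82 in DMSO, and 2,4-D gave 6.42, 5.74 and 5.94, against 6.01, 6.31 and 5.94 in DMSO. The groups overlapped in all 3 sets. The differences were -0.14 (95% interval -0.43 to 0.15) and -0.06 (-0.40 to 0.29), and P1 at 10 µM 2,4-D lay 0.41 above its DMSO array while P2 differed from its own by -0.57.

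Of 19 further SLCO, SLC22 and SLC47 genes that could be measured, 0 passed against DMSO at 10 µM of any chemical, with medians of 0.01, 0.04 and -0.02 for fenbuconazole, imazalil and 2,4-D. SLC47A2 was higher with imazalil against the low doses (0.26, adjusted p = 0.0449). Of 17 other hepatic solute carriers, 3 fell with fenbuconazole, 2 with imazalil and 0 with 2,4-D against DMSO, where 0.607%, 0.819% and 0% of all genes passed. SLC2A2, the glucose carrier of hepatocytes, fell by 0.48 with fenbuconazole and by 0.52 with imazalil (adjusted p = 0.00581 and 0.00799). SLC17A4, an organic anion carrier, fell by 0.50 with fenbuconazole (adjusted p = 0.0123), SLC28A1, a nucleoside carrier, by 0.74 (adjusted p = 0.0440), and SLC10A1 (NTCP), the sodium-dependent bile acid carrier, by 0.39 with imazalil (adjusted p = 0.04998).

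Against the low doses SLC51A, the OSTα subunit of bile acid efflux, fell with all 3 chemicals, at -0.86 with fenbuconazole, -1.06 with imazalil and -1.43 with 2,4-D (adjusted p = 0.0197, 0.0172 and 0.00150). SLC17A4 also fell there with all 3, at -0.50 with fenbuconazole (adjusted p = 0.000273), -0.58 with imazalil (adjusted p = 0.00340) and -0.45 with 2,4-D (adjusted p = 0.0216). SLC10A1 and SLC2A2 fell with both azoles and SLC28A1 with fenbuconazole, so that of the 17 carriers 5 fell with fenbuconazole, 4 with imazalil and 2 with 2,4-D, and 0 rose, where 2.05%, 2.71% and 0.445% of all genes passed.

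Of 10 efflux pumps measured, 1 rose with fenbuconazole and 3 with imazalil against DMSO, where 0.607% and 0.819% of all genes passed. ABCB1 (P-glycoprotein) was 0.69 higher with fenbuconazole (adjusted p = 0.00362) and 1.04 higher with imazalil (adjusted p = 2.52e-07), ABCG2 (BCRP) 1.33 higher with imazalil (adjusted p = 9.06e-05) and ABCC2 (MRP2) 0.59 higher with imazalil (adjusted p = 0.0250). Of 16 nuclear receptors and hepatocyte factors 0 passed with fenbuconazole, and with imazalil PROX1 alone fell, at -0.72 (adjusted p = 0.00175).

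Cell type markers moved beside these values at 10 µM. With imazalil the mean over 13 hepatocyte markers other than CYP3A4 was 11.42 to 11.65 in the 3 arrays, against 11.68 to 11.76 in DMSO, and with fenbuconazole 11.48 to 11.77, against 11.69 to 11.77 in DMSO. With CYP3A4 included, the mean over the 14 markers overlapped DMSO, at 11.49 to 11.72 with imazalil, against 11.56 to 11.63, and 11.51 to 11.80 with fenbuconazole, against 11.57 to 11.64. The mean over the 7 biliary markers, 4 of them within 1 log2 unit of the median or under it, lay above DMSO with imazalil, at 4.95 to 4.97, against 4.72 to 4.83. With fenbuconazole it was 4.911 to 5.087, against 4.770 to 4.908, so that the groups nearly touched. AHSG fell by 1.26 with imazalil and by 0.83 with fenbuconazole (adjusted p = 4.36e-05 and 0.0337). Of 7 biliary markers SPP1 rose by 0.86 with imazalil and by 0.53 with fenbuconazole (adjusted p = 1.24e-05 and 0.00527). SPP1 enters the biliary mean given above, and a mean without it was not taken. With imazalil COL3A1, 1 of 7 mesenchyme markers, fell by 0.82 and CD14, 1 of 4 immune markers, rose by 0.88 (adjusted p = 0.000744 and 1.22e-06). Of all genes 0.819% passed with imazalil and 0.607% with fenbuconazole, and these are changes of single genes. In bulk RNA fewer cells of a type and less RNA per cell cannot be told apart, and the part of these marker changes in the values of SLC22A7 and SLC47A1 was not tested.

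The pattern of SLC47A1 over the 27 condition means was most like CYP1A2 (r = 0.93), ALAS1 (r = 0.93) and KANSL3 (r = 0.93) among 12966 genes above the median level, and that of SLC22A7 most like SPP2 (r = 0.92), VIL1 (r = 0.91) and LEAP2 (r = 0.91). Without the 10 µM azole conditions these fell to 0.64, 0.63 and 0.83 for SLC47A1 and 0.64, 0.74 and 0.70 for SLC22A7 over 25 conditions. SLCO1B1 was nearest TUBE1, CYBRD1 and ETAA1 (r = 0.78, 0.78 and 0.77), SLCO2B1 nearest HES2, WDR13 and TRABD (0.74, 0.72 and 0.72), SLC22A9 nearest MROCKI, HDGF and STOML1 (0.69, 0.66 and 0.65) and SLCO1B3 nearest AZI2, RNF144B and C2orf74-DT (0.63, 0.63 and 0.62). The conditions share the DMSO arrays and the genes were picked for the highest r, so these values are descriptions.

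Between the P codes, none of the 6 representing probe sets passed in any set, where 3.34%, 3.52% and 6.01% of all genes passed for fenbuconazole, imazalil and 2,4-D. The widest spread of P code means among them was 0.22 log2 units, for SLC22A9 and SLC22A7 in the imazalil set. Other probe sets of these genes spread more widely, up to 0.56 for 221661_PM_at of SLC22A7 in the imazalil set. In the 2,4-D set 203472_PM_s_at and 211557_PM_x_at of SLCO2B1 each spread over 0.33. The batch calls by the mean of all probe sets of a gene are given below. The representing probe set of SLC22A7 averaged 9.10 in P1, 9.21 in P2 and 9.32 in P3 in the imazalil set (adjusted p = 0.0996).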

How the data were processed

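The deposited values are log2 expression from Affymetrix HT HG-U133+ PM arrays, made by the authors with RMA, 1 run a chemical, the 3 DMSO arrays entering each run. The submitters' notes name RMA and Partek, with versions not given in the sources used here. Arrays have no counting depth, so their number limits precision.

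For each set of 30 arrays, limma 3.58.1 in R 4.3.3 estimated the group means, with moderated t and F tests and Benjamini-Hochberg adjustment at 0.05 over 19774 genes, each represented by its single-symbol probe set of highest mean, or over 54715 probe sets. Chemicals were compared on the 81 treated arrays after subtraction of each set's DMSO mean. Of these steps, only the fit within a set was tested on simulated data, without batch differences.

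Genes named are all members with every probe set, list genes that passed, CYP1A1, CYP2B6 and CYP3A4, and the 3 genes most like each member. Members and lists were chosen with earlier results of these data known. The study describes each replicate as its own cell batch, and the P code was taken as that batch. The main tests carried no P code term and were unpaired. Pairing entered only where a block or a difference within a P code is named. Deviations from group means had a mean r of 0.10, 0.09 and 0.12 within a P code and of -0.05, -0.05 and -0.06 between codes. Because the deviations of a group cancel out, the r between codes follows from the r within a code and is not a separate observation. For 2,4-D, titles and P codes number the replicates differently at 6 of 9 doses, and pairing by title gave a mean r of 0.000718. The 2,4-D arrays at 0.001 and 0.003 µM of 1 batch carry the same sample code, and their doses were taken from the titles. Promoter sequences are from RefSeq.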

Additional observations from a re-analysis of the deposited data

Results flagged for a closer look

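The response of SLC47A1 at 10 µM differed between chemicals by a test of the difference itself. Fenbuconazole over DMSO minus imazalil over DMSO was -0.43 log2 units. All 3 arrays at 10 µM of fenbuconazole and of imazalil lay above the low-dose arrays of their own set, a separation seen for 1.92% and 2.82% of all genes. Imazalil over DMSO minus 2,4-D over DMSO was 0.51, and the 2,4-D arrays overlapped their low-dose arrays. These were the only differences between chemicals at 10 µM that passed among the representing probe sets of 6 transporters and 3 pairs of chemicals. The fenbuconazole against imazalil difference did not pass without P2 or without P3, nor the imazalil against 2,4-D difference without P3. No group had more than 3 arrays, so single arrays far from the others were not sought by a fixed rule.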

How the results depend on the processing

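Leaving out 1 P code at a time, the count of transporters that passed ranged from 0 to 1 for imazalil against DMSO, fenbuconazole against the low doses, single doses, fenbuconazole against imazalil and imazalil against 2,4-D, from 1 to 2 for imazalil against the low doses, and was 0 in each case for the moderated F of imazalil, which counted 1 with all arrays. Counts over all 19774 genes fell too. For imazalil against DMSO they were 27 to 65, against 162 with all arrays, and for its F test 20 to 32, against 76. Against the low doses they were 84 to 221 for fenbuconazole, against 406, and 88 to 277 for imazalil, against 536. Between chemicals they were 36 to 60, against 102, for fenbuconazole and imazalil, and 64 to 73, against 154, for imazalil and 2,4-D. With the replicate block by P code, the pairing raised the counts to 1 for fenbuconazole against DMSO, 2 against the low doses, 2 over single doses, 1 for fenbuconazole against 2,4-D and 2 for imazalil against 2,4-D, and changed no other count. Over all genes the counts rose as well, from 120 to 153 for fenbuconazole against DMSO and from 406 to 522 against the low doses. They rose from 109 to 148 for fenbuconazole against 2,4-D and from 154 to 238 for imazalil against 2,4-D. Pairing the 2,4-D arrays by title number changed no call. The mean of all probe sets of a gene gave 1 for fenbuconazole against DMSO (SLC22A7 at -0.50, adjusted p = 0.00215), 2 over single doses, 1 for fenbuconazole against 2,4-D and 2 for culture batch, SLC47A1 in the fenbuconazole set and SLCO2B1 in the 2,4-D set. A limma fit with trend and robust variance gave 1 and 2 for fenbuconazole against DMSO (SLC22A7, adjusted p = 0.00976) and single doses, and a linear trend gave 0 for imazalil. For fenbuconazole against DMSO, 138 genes passed by the mean of probe sets and 147 with trend and robust variance, against 120 in the main fit. The linear trend of imazalil called 65 genes. The cause of these moves was not tested. Leaving out a P code removes a batch and lowers the number of arrays at once, and the 2 cannot be told apart.

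Signs turned only for differences that had not passed. Without 1 P code at 10 µM, SLC22A9 ranged over -0.29 to 0.20 for 2,4-D against DMSO, -0.24 to 0.18 against the low doses, -0.28 to 0.22 for fenbuconazole against 2,4-D and -0.49 to 0.10 for imazalil against 2,4-D. SLCO1B1 ranged over -0.12 to 0.13 and -0.32 to 0.0039 for fenbuconazole against DMSO and the low doses, -0.19 to 0.010 for imazalil against the low doses, -0.29 to 0.10 for fenbuconazole against 2,4-D, -0.24 to 0.018 against imazalil and -0.051 to 0.077 for imazalil against 2,4-D, where added quantile normalization gave -0.011. SLCO1B3 ranged over -0.083 to 0.14 for 2,4-D against DMSO, -0.12 to 0.19 and -0.034 to 0.11 for fenbuconazole and imazalil against the low doses, -0.020 to 0.32 for fenbuconazole against 2,4-D and -0.16 to 0.084 against imazalil, and with 0.001 to 0.01 µM as the low doses it was 0.058 for fenbuconazole. SLCO2B1 ranged over -0.091 to 0.033 for 2,4-D against DMSO, and by the mean of its probe sets was -0.041 for imazalil. SLC22A7 ranged over -0.060 to 0.052 for fenbuconazole against imazalil, and SLC47A1 over -0.0052 to 0.17 for fenbuconazole against 2,4-D. Of 570 values under other settings, 535 kept their sign and side of the threshold.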
